A study of Mus musculus with 6 samples.

Results

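Calpains are calcium-dependent cysteine proteases of the cytosol. They cut their substrates at a few sites instead of degrading them, and so alter cytoskeletal, adhesion and signalling proteins. The classical enzymes, calpain 1 and calpain 2, each pair a catalytic subunit with a shared small regulatory subunit, and calpastatin is their specific inhibitor. The genes described here are 6 catalytic subunit genes (Capn1, Capn2, Capn7, Capn10, Capn11 and Capn15), the small subunit gene Capns1 and the calpastatin gene Cast. These 8 of the 55421 genes listed were taken by name. The group was chosen by the measured values of Capn11, which had no read in any SFR KO library, so the values of Capn11 are described without a test. The other 7 genes are read from a fit over all genes.

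The libraries hold RNA of germinal centre B cells, which diversify their antibody genes in the spleen after antigen is met. The 3 SFR KO libraries came from C57BL/6 mice with a deletion that begins in intron 1 of Cd244 and ends in exon 8 of Slamf6. It removes Cd244, Ly9, Slamf7, Cd48, Slamf1, Cd84 and Slamf6 of the SLAM receptor family. The 3 wildtype libraries came from C57BL/6 mice without it. Mice of both groups carried an AID-GFP reporter, were immunised with NP(18)OVA in alum and gave spleen cells on day 9, from which GFP-positive cells were sorted. No source used here gives the ages of the mice or says whether each library is 1 mouse, and the spread behind each p-value is that of the libraries, which may be technical. The libraries held 28269310 to 33053024 reads assigned to genes. The 7 deleted genes summed to 5.5 to 16.8 normalized reads (reads divided by a size factor per library) in SFR KO and 10457 to 20669 in wildtype libraries. All 12 germinal centre B cell markers checked were tested. Limma and edgeR called 0 of them at an adjusted p under 0.05, 2 passed that value unadjusted in limma, and DESeq2 called 1, Gcsam. Of all tested genes, 16.1% had such an unadjusted p and 3.56% were called by DESeq2. The groups did not overlap for 1 marker lower and 3 higher in SFR KO, against 11.9% and 9.78% of all tested genes. Over all genes, limma called 63 of 13562 tested genes, and 501 without SFR KO 1. SFR KO 1 stood apart from its group by the chi-square per gene between the counts of 2 libraries. This was 22.1 with SFR KO 3 and 15.3 with SFR KO 2, against 5.68 between SFR KO 2 and SFR KO 3. The wildtype pairs gave 11.4, 11.8 and 12.4, so 5.68 was the lowest of all pairs.

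The start regions of Capn11, Capn15 and Capn1 are printed because the first had no read in SFR KO libraries, the second was the called gene and the third was the most abundant catalytic subunit. Each runs from 250 bases before to 50 after a RefSeq transcript start (GRCm38.p6), 5′ to 3′ on the gene's strand, and capitals mark CpG dinucleotides.
Capn11, chr17:45659260-45659559, minus strand: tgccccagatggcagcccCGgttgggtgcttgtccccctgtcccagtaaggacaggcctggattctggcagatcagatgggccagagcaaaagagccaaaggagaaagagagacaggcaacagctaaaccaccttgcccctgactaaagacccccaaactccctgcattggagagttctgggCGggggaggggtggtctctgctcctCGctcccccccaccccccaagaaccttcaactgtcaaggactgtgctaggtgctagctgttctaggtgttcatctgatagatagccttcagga
Capn15, chr17:25985747-25986046, minus strand: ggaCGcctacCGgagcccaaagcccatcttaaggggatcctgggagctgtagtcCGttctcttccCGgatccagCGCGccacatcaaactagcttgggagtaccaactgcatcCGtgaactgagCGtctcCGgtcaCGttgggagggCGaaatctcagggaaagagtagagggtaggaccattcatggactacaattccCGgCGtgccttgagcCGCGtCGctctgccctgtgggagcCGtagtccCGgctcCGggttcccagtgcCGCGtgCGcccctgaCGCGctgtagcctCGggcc
Capn1, chr19:6015776-6016075, minus strand: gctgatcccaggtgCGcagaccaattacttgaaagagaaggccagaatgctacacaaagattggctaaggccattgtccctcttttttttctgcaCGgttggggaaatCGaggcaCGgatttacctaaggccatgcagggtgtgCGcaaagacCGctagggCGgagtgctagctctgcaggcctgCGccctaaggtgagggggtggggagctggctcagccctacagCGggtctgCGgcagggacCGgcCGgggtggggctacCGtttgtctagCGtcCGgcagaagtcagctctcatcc
The Capn11 region held 3 CpGs, against 25 for Capn15 and 15 for Capn1. The ratio of observed to expected CpGs was 0.122, 0.849 and 0.579 in that order. Of 32817 mouse start regions of this length, 16.6% had a ratio at or below that of Capn11. RefSeq regions matched all 8 genes. Capn2, Capn7, Capn10 and Capns1 held 14 to 27 CpGs and the Cast region held 3. For Capn1, Capn15 and Cast, which have 2 to 4 such regions, the one nearest the annotated gene start was taken. The Capns1 region lies 3658 bases from the annotated gene start. The GC box (letters GGGCGG, either strand) occurred once in Capn11 and once in Capn1 and not in Capn15, and 35.6% of all start regions hold it. The CCAAT box (CCAAT, either strand) occurred 1 time in Capn11, 2 times in Capn1 and not in Capn15, against 37.4% of all regions. None of the 8 regions held the TATA box (TATAAA, either strand, 13.6% of all regions), the cyclic AMP response element (TGACGTCA, 1.79%) or the E box (CACGTG, either strand, 7.15%). The Capn11 GC box and CCAAT box do not overlap. These matches describe letters within 300 bases.

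Capn11 encodes a calpain with the domain layout of the classical enzymes, known mainly from the testis. It lies on chromosome 17 from 45630204 to 45659325 (GRCm38, minus strand), and no other annotated gene overlaps it on either strand. It had 0, 0 and 0 normalized reads in SFR KO libraries 1, 2 and 3, against 22.3, 244.1 and 100.6 in wildtype libraries 1, 2 and 3. The groups did not overlap. The wildtype libraries differed among themselves by 10.9-fold between the highest and the lowest, and wildtype 2 held 65.9% of the 361 wildtype reads. In recovered whole reads these values were 24, 238 and 99. As CPM, that is scaled to a common total of assigned reads, the wildtype levels were 0.726, 7.83 and 3.26. In the SFR KO group of 92582530 reads, a count of 0 allows a level of up to 0.0324 CPM (3 reads over the group, counting error only). With the reads of each group pooled, Capn11 was at least 119-fold lower in SFR KO than in wildtype libraries against this floor. With a floor of 3 reads in each library it was at least 39.6-fold lower. These limits leave out the spread between libraries, and against wildtype 1 alone, at 0.726 CPM, they would be smaller. The 119-fold limit was 59.9 without wildtype 2, and between 76.4 and 82.5 when an SFR KO library was left out, since the floor then spans fewer libraries. In bulk samples, fewer cells of a type and less RNA per cell cannot be told apart.

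**Figure D1:**
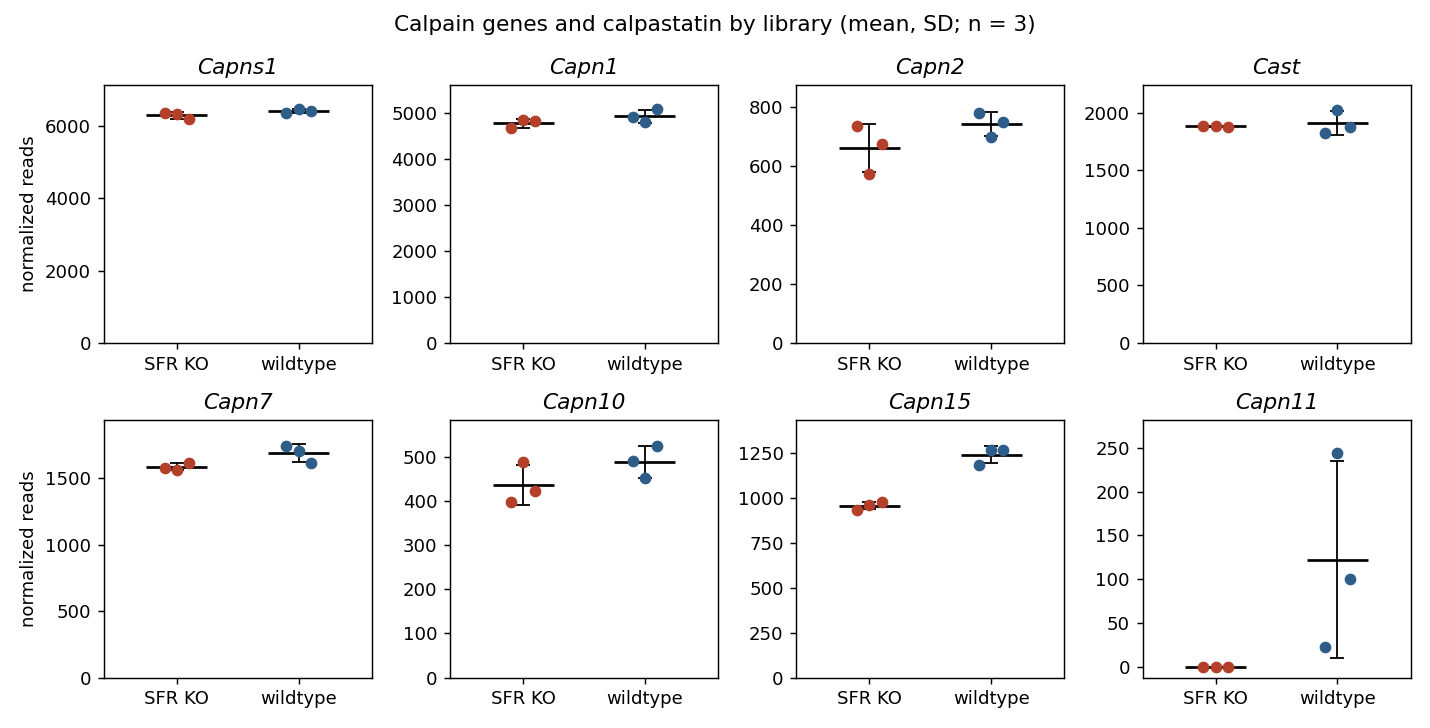
Normalized reads (vertical axes, each its own scale) of the 8 genes in the 3 SFR KO and 3 wildtype libraries; points are libraries, bars the mean and whiskers the SD. Capn11 is at 0 in all SFR KO libraries and at 22.3 to 244.1 in wildtype, and Capn15 is the other gene with a wide gap between the groups.

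Few genes shared this pattern. By the rule of 0 reads in every SFR KO library and at least 10 in every wildtype library, 4 genes of the table were found. These were Ly9, Cd84 and Gm37065, which lie in the deleted chromosome 1 segment, and Capn11. The converse rule, with 0 reads in every wildtype library and at least 10 in every SFR KO library, found 0 genes. The first rule follows the values that chose Capn11, so its place there was set beforehand and nothing is read from either count. On log2(normalized reads + 1) over the 6 libraries, the 5 tested genes whose profiles were most like that of Capn11 were Bin2, Gdpgp1, Dkk3, Abcb6 and Fadd. Their Pearson correlations with Capn11 were between 0.990 and 0.995, given as a description over libraries that share 1 scaling. Bin2, a BAR-domain protein gene of blood cells, had 2719.6, 2681.2 and 2679.5 normalized reads in SFR KO and 3067.8, 3395.1 and 3191.4 in wildtype libraries. As the choice by likeness to Capn11 sets, every SFR KO library lay below every wildtype library in all 5 genes, and nothing is read from this; 11.9% of all tested genes were lower in SFR KO without overlap.

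Markers of the testis, where Capn11 is best known, were low in both groups. Of 18 germ cell genes, 9 had no read in any library, among them the defining genes Sycp1, Sycp3, Tnp1 and Prm2. Their summed level was 81.8 to 134.9 normalized reads in SFR KO and 84.1 to 94.8 in wildtype libraries, and these ranges overlapped. Of the 4 tested, limma and edgeR each called 0, and none had an unadjusted p under 0.05; DESeq2 gave none of them an adjusted p. Tnp2 and Prm1, also of spermatids, were read in both groups, at no more than 25.2 and 18.3 normalized reads. The most abundant was Zpbp, a gene of the sperm acrosome, at 34.5, 40.5 and 55.3 in SFR KO and 40.9, 43.1 and 35.5 in wildtype libraries. Wildtype 1, the lowest of its group for Capn11, held the highest sums of the neutrophil, red cell and macrophage lists that follow. Its sum of the deleted genes, 20668.9, was also the highest, against 11327 in wildtype 2 and 10456.7 in wildtype 3. Within wildtype it held the highest T cell and germ cell sums too. Wildtype 2 held the highest wildtype sums of stromal and germinal centre B cell markers. Neutrophil markers (8 genes) summed to 362.4 to 1870.2 in SFR KO and 851.2 to 6208.9 in wildtype libraries, with S100a9 the highest. Red cell markers (6 genes, Hbb-bs highest) summed to 1560.1 to 4225.2 in SFR KO and 1435.2 to 7885.9 in wildtype libraries. Macrophage and dendritic cell markers (8 genes, Lyz2 highest) summed to 1224 to 2753.1 in SFR KO and 1315.3 to 2940.5 in wildtype libraries. T cell markers (11 genes, of which Lck is also a B cell gene and held most reads) summed to 4828.2 to 7068.3 in SFR KO and 4352.3 to 4717.8 in wildtype libraries, without overlap. Lck alone had 3919.7, 5287.9 and 6155.1 in SFR KO and 3797.1, 3902.9 and 3926.7 in wildtype libraries. The sums therefore mostly follow Lck, and they do not show whether the other T cell markers differed. Cd8a (log2 -0.43) and Cd8b1 (-0.73) were the 2 genes with fitted values below 0. Limma and edgeR called 0 of the 11, DESeq2 called 1 (Lck) and gave 3 no adjusted p, and 5 had an unadjusted p under 0.05, all 5 above 0. Those shares were 3.56% (DESeq2 calls) and 16.1% (unadjusted limma p) over all tested genes. Stromal and endothelial markers (7 genes in the table, Pecam1 highest) summed to 1567.8 to 2135.3 in SFR KO and 2047.7 to 2350.9 in wildtype libraries. For the lists of this paragraph other than T cell markers, the ranges of the summed levels overlapped. All 7 tested neutrophil genes nevertheless had fitted values below 0 (median log2 -1.21), and 0 of them had an unadjusted limma p under 0.05. The germinal centre B cell markers summed to 368314 to 376598 in SFR KO and 358325 to 367053 in wildtype libraries, without overlap. The part of any of these cells in the Capn11 values was not tested.

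The region around Capn11 was compared next, since position is independent of the values that chose the gene. Of 32 listed genes within 500 kb, 19 had a read and 12 could be tested, with a median log2 difference of -0.03. Neither limma nor edgeR called any of the 12 (0 each), and DESeq2 called 1, Hsp90ab1, against 3.56% of all tested genes. The unadjusted limma p was under 0.05 for 2, Slc29a1 and Hsp90ab1, against 16.1% of all tested genes. The nearest gene, Tmem63b, a cation channel gene that ends 0.846 kb from the start of Capn11 on the same strand, had 102.5, 86.5 and 82.4 normalized reads in SFR KO and 95.7, 100.5 and 93.4 in wildtype libraries. Its groups overlapped (log2 difference -0.10 ± 0.17 SE, limma adjusted p = 0.836). On the other side Slc29a1, a nucleoside transporter gene, had 1244.5, 1047.7 and 1128.6 in SFR KO and 1267.2, 1455.5 and 1404.7 in wildtype libraries (-0.27 ± 0.08, limma adjusted p = 0.164). Its groups did not overlap. Hsp90ab1, which encodes a cytosolic chaperone, had 98600.2, 104327.6 and 98616.9 in SFR KO and 119073.7, 105363.8 and 118924.1 in wildtype libraries. Its groups did not overlap either (-0.19 ± 0.07, limma adjusted p = 0.228). Of all tested genes, 11.9% were lower in SFR KO without overlap. Slc35b2, a Golgi sulphate donor transporter gene, stood at -0.02 ± 0.06 (0.93). Mrpl14 and Mrps18a, both of the mitochondrial ribosome, stood at 0.01 ± 0.11 (0.986) and 0.04 ± 0.06 (0.827).

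**Figure D2:**
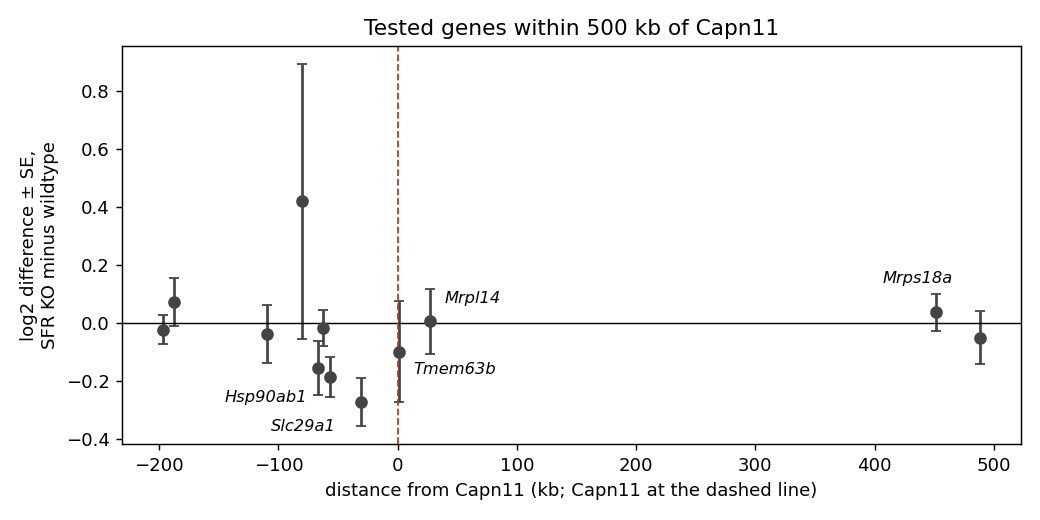
Log2 difference with its SE (vertical axis) of the 12 tested genes within 500 kb of Capn11, by distance from Capn11 in kb. The points lie between -0.27 (Slc29a1) and 0.42, and none passed limma's threshold.

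The classical system of calpain 1, calpain 2, their small subunit and their inhibitor was read at similar levels in both groups. Capns1 had 6349.6, 6322.5 and 6185.1 normalized reads in SFR KO and 6353, 6466.1 and 6403 in wildtype libraries. The groups did not overlap, but by a margin of a few reads, and the log2 difference was -0.03 ± 0.04 (limma adjusted p = 0.807), with a 95% interval of -0.12 to 0.07. Capn1, the catalytic subunit of calpain 1, had 4660.7, 4836.8 and 4814 in SFR KO and 4898, 4792.2 and 5072.4 in wildtype libraries. These values overlapped, and the log2 difference was -0.04 ± 0.05 (limma adjusted p = 0.699; interval -0.15 to 0.06).

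Capn2, the catalytic subunit of calpain 2, varied more. It had 737, 573.7 and 675.3 normalized reads in SFR KO and 782.3, 699.5 and 751.6 in wildtype libraries. SFR KO 1 lay within the wildtype range, and the log2 difference was -0.18 ± 0.10 (limma adjusted p = 0.441; interval -0.41 to 0.05). It was -0.076 without SFR KO 2, the lowest library, and between -0.26 and -0.14 with any other library left out. Capn2 lies on chromosome 1, 10.5 Mb beyond the deleted segment. Cast, the inhibitor, had 1889.9, 1883.1 and 1879.7 in SFR KO and 1828.4, 2027.8 and 1875 in wildtype libraries. Its SFR KO values all fell inside the wildtype range, with a log2 difference of -0.02 ± 0.06 (limma adjusted p = 0.914; interval -0.15 to 0.11). Cast overlaps Erap1 on the opposite strand by 834 bases, and no source used here gives the strand setting of the counting, so the 2 genes may share reads.

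Capn7, Capn10 and Capn15 lack the penta-EF-hand domain that binds the small subunit. Capn15, a calpain with zinc fingers named after the small optic lobes gene of Drosophila, fell in SFR KO libraries. It had 933.1, 960.1 and 974 normalized reads there, against 1184.6, 1264.7 and 1267.6 in wildtype libraries. The groups did not overlap, and the gap between them was larger than the spread within either. The level was 0.772 times that of wildtype (log2 -0.37 ± 0.06, limma adjusted p = 0.0479; interval -0.52 to -0.23). In the authors' deposited table its log2 fold change was -0.37 ± 0.09 with an adjusted p = 0.00167. The call was close to the threshold. It was lost with edgeR (adjusted p = 0.0527), with TMM scaling in limma (0.0502), once a GC trend fitted per library was taken out (log2 -0.31, 0.101), and without any 1 library other than SFR KO 1 (0.118 to 0.206). Its log2 difference stayed between -0.41 and -0.31 in all 16 alternatives. Capn15 lies on chromosome 17 from 25958364 to 25985796, and its longest transcript has a GC content of 61.1%, the highest of the 8 genes.

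**Figure D3:**
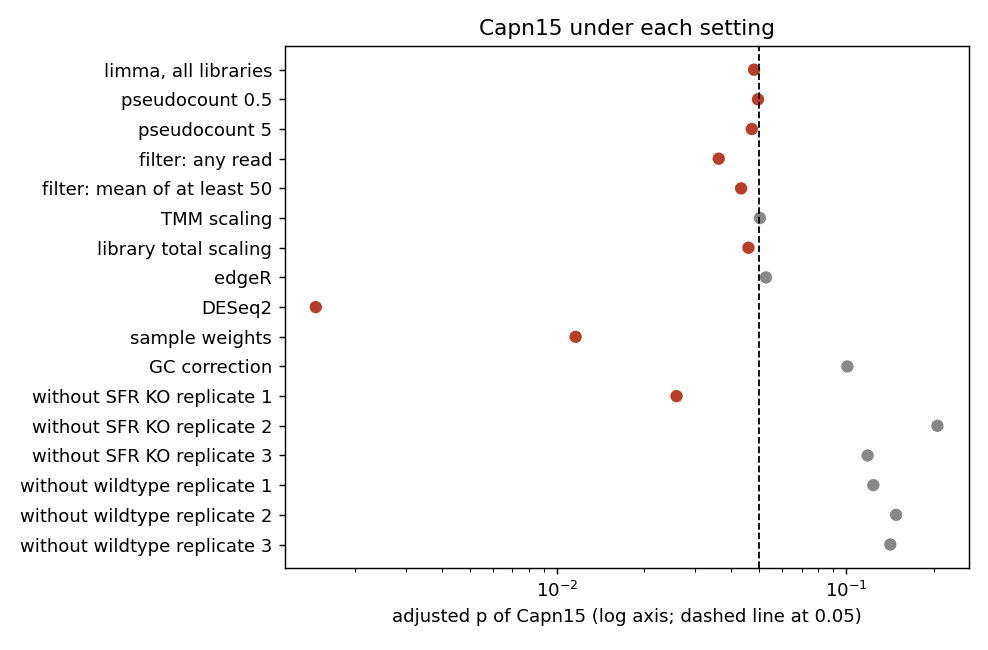
Adjusted p of Capn15 (horizontal log axis) in the limma fit and 16 alternatives; red points lie under 0.05 and grey points above it. The gene was called in 8 of the 16 alternatives, and leaving out a library other than SFR KO 1 gave 0.118 to 0.206.

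Capn7, which carries domains that bind the ESCRT membrane-remodelling machinery, had 1582.5, 1565.6 and 1616.5 normalized reads in SFR KO and 1745.7, 1707.8 and 1616 in wildtype libraries. SFR KO 3 lay within 1 read of wildtype 3, and the log2 difference was -0.09 ± 0.06 (limma adjusted p = 0.485; interval -0.22 to 0.04). Capn7 overlaps the opposite-strand gene Sh3bp5 over 12107 bases. Sh3bp5 averaged 6438 in SFR KO and 6964 in wildtype libraries. The overlaps given for Capn7, Cast and Capn5 are of whole gene spans, introns included. Whether any counted reads were shared was not tested, and the Capn7 values are uncertain to that extent. Capn10, a gene first studied for human type 2 diabetes, had 398.1, 487.2 and 422.4 in SFR KO and 489.6, 451.3 and 523.1 in wildtype libraries. The groups overlapped (log2 -0.17 ± 0.11, limma adjusted p = 0.488; interval -0.41 to 0.07). It too lies on chromosome 1, 78.6 Mb from the deleted segment.

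Leaving out Capn11, limma thus called 1 of 7 genes lower, where 0.31% of all tested genes were called lower, and 0 of 7 higher, against 0.155%. Of the 7, only Capn15 had an unadjusted p under 0.05, edgeR called 0, against 0.221% of all tested genes, and DESeq2 called 1, Capn15, against 3.56%. The groups did not overlap for 2 of 7 genes, Capn15 and Capns1, both lower in SFR KO libraries, where 11.9% of all tested genes were lower without overlap and 9.78% were higher. All 7 fitted differences were below 0, with a median of -0.09, against 50.7% and a median of -0.00297 over all tested genes. The 2 other tested calpain genes, Capn5 and Capn3, stood above 0, at 0.82 and 0.12. After the GC correction Capn1 and Capns1 stood above 0, at 0.021 and 0.039.

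**Figure D4:**
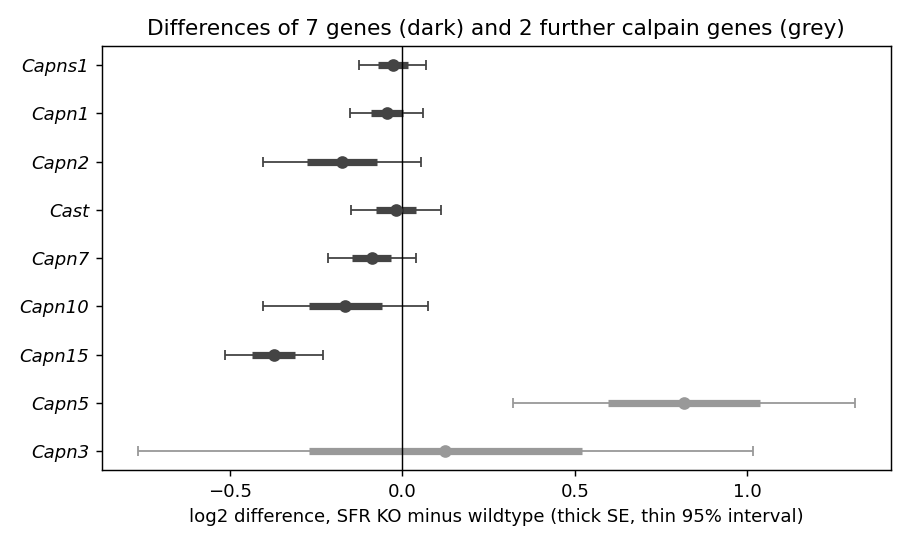
Log2 difference of SFR KO minus wildtype (horizontal axis) for the 7 genes other than Capn11 and for Capn5 and Capn3, with the SE (thick) and 95% interval (thin). The interval of Capn15, -0.52 to -0.23, lies below 0 and that of Capn5, 0.32 to 1.31, above it, while the others cross 0.

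Levels were compared between genes as normalized reads per kilobase of exon. The small subunit gene Capns1 was highest, at 2538 ± 35.6 per kb in SFR KO and 2587 ± 22.9 in wildtype libraries (SD, n = 3 each). Capn1 followed at 1427 ± 28.6 and 1472 ± 42.3, and Capn7 at 324 ± 5.3 and 345 ± 13.6, in the same order of groups. Each of these steps exceeded the spread between libraries. Below them stood Capn15 at 167 ± 3.63 in SFR KO and 216 ± 8.23 in wildtype libraries, and Cast at 164 ± 0.454 and 167 ± 9.1. Capn15 and Cast overlapped in SFR KO libraries and did not in wildtype. Capn2, at 104 ± 13 and 117 ± 6.59, and Capn10, at 100.3 ± 10.6 and 112 ± 8.26, could not be ordered in either group. Capn11 in wildtype was at 45.2 ± 41.5. With the longest transcript as the length instead of all exons, Cast was at 367 and 372 per kb beside Capn7 at 341 and 362, and Capn2 at 205 and 231 (SFR KO and wildtype), and Cast and Capn7 overlapped in wildtype libraries.

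Per kb of exon, Capn1 made up 67.2 ± 0.474% of the summed level of the 6 catalytic genes in SFR KO and 63.8 ± 1.43% in wildtype libraries. Capn11 made up 0% and 1.95 ± 1.8%, and Capn15 7.86 ± 0.0663% and 9.37 ± 0.242%, in the same order. The sum includes Capn11, whose values chose the group, so its loss by itself raises the shares of the other genes in SFR KO. No change of Capn1 is read from its share. Capn1 exceeded Capn2 by 13.8 ± 2.02 times in SFR KO and 12.6 ± 0.598 times in wildtype libraries, and these ranges overlapped. Capns1 exceeded Cast by 15.4 ± 0.182 times in SFR KO and 15.6 ± 0.698 times in wildtype libraries, which overlapped as well. The percentages and the sizes of the ratios to Cast and Capn2 depend on the length used for each gene. The comparison of these ratios between groups does not.

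**Figure D5:**
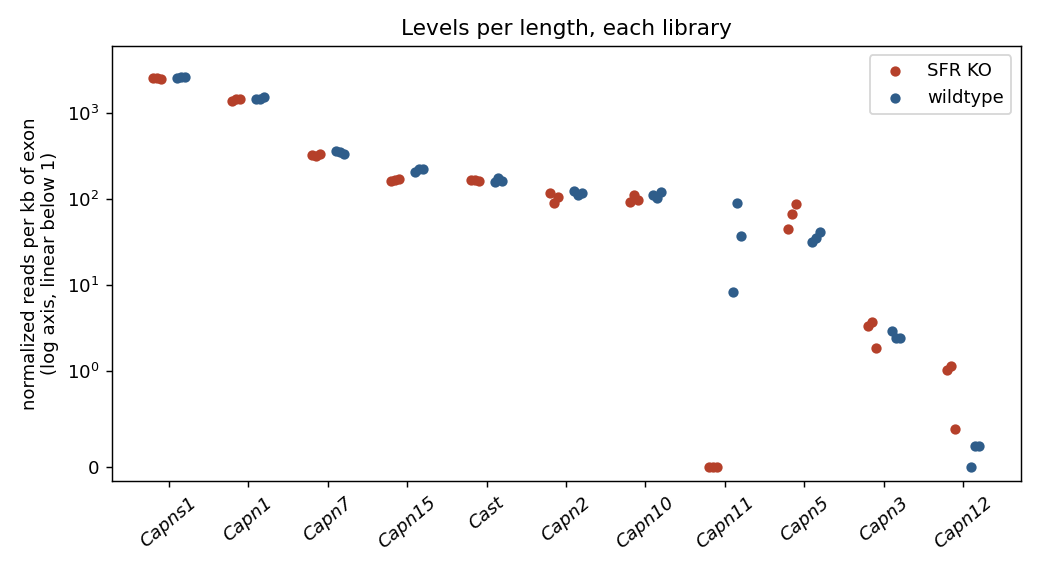
Normalized reads per kb of exon (vertical axis, logarithmic above 1 and linear below) of the 8 genes and 3 further calpain genes, one point per library. Capns1 and Capn1 stand above the rest in both groups, and Capn11 is at 0 in the 3 SFR KO libraries.

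The spread between libraries differed widely among the 8 genes. The coefficient of variation was 1.4% for Capns1, 0.276% for Cast and 2.01% for Capn1 in SFR KO libraries, and 0.885%, 5.46% and 2.88% in wildtype libraries. It was 12.5% for Capn2 and 10.6% for Capn10 in SFR KO libraries, against 5.62% and 7.36% in wildtype. Over 8341 genes with a mean of 200 to 10000 normalized reads the median was 6.06% in SFR KO and 5.44% in wildtype libraries. Each coefficient rests on 3 libraries and includes counting error, which is larger for genes with fewer reads. For Cast, with 1720 to 2007 reads per SFR KO library, counting error alone exceeds 0.276%. It also exceeds the 0.885% of Capns1 in wildtype libraries, with 6304 to 6838 reads. In SFR KO libraries it exceeds the values of Capn7 (1.63%, 1430 to 1726 reads) and Capn15 (2.18%, 877 to 1040 reads). These values are too small to be taken as the spread of those genes. Differences in spread between genes were not tested. Capn11, at 92% in wildtype libraries, varied far more than any other of the 8.

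Of the 8 other genes of the calpain family checked, 4 had a read. Capn6, Capn8, Capn9 and Capn13 had 0 reads in all 6 libraries. Capn5, a calpain without a penta-EF-hand domain, had 246.3, 362.4 and 475.8 normalized reads in SFR KO and 174.7, 192.8 and 229.5 in wildtype libraries. The groups did not overlap, SFR KO 1 was close to wildtype 3, and the log2 difference was 0.82 ± 0.22 (limma adjusted p = 0.131; interval 0.32 to 1.31). Limma called Capn5 without SFR KO 1 (log2 1.07, adjusted p = 0.0122) and with sample weights (0.0236). DESeq2 called it (0.00521) and edgeR did not (0.126). In the authors' deposited table its adjusted p was 0.00332. Capn3, a calpain best known from muscle, had 16.8, 18.6 and 9.4 in SFR KO and 14.9, 12.3 and 12.2 in wildtype libraries (log2 0.12 ± 0.40, limma adjusted p = 0.915). Capn12 had 4.9, 5.5 and 1.9 in SFR KO and 0, 1 and 1 in wildtype libraries, too low to test. The second small subunit gene Capns2 had 1 read, in SFR KO 3. Capn5 overlaps Omp on the same strand by 2144 bases, and Omp averaged 27.2 in SFR KO and 15.2 in wildtype libraries.

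Genes around the calpains in the cell were read from lists of names. The 4 other penta-EF-hand genes, calcium-binding relatives of the small subunit, had a median log2 difference of -0.02. Limma, edgeR and DESeq2 each made 0 calls, and no gene (0) passed 0.05 unadjusted. Gca, the grancalcin gene, stood at 0.30 ± 0.17 (limma adjusted p = 0.43) and Pef1, the peflin gene, at -0.05 ± 0.08 (0.817). Of the ESCRT genes, among them the binding partners of Capn7, 14 of 15 were tested, with a median of -0.02. All 3 tools made 0 calls, and 3 genes passed 0.05 unadjusted, against 16.1% of all tested genes. These were Chmp7, an ESCRT-III subunit, at -0.20 ± 0.06 (limma adjusted p = 0.193), and the ATPases that take ESCRT-III apart, Vps4a at -0.20 ± 0.07 (0.236) and Vps4b at 0.17 ± 0.06 (0.236).

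Known substrates of calpains were described as 2 lists. All 21 cytoskeletal and adhesion substrate genes were tested, 17 of them with fitted values below 0 (81.0%, against 50.7% of all tested genes) and a median of -0.11. Limma and edgeR called 0, DESeq2 called 2, Sptan1 and Myh9, and 8 had an unadjusted p under 0.05, all 8 below 0. Of all tested genes, 3.56% were called by DESeq2 and 16.1% had such a p. Sptan1, the spectrin alpha chain that serves as a classical calpain substrate, had 7010.8, 7245.4 and 7554.4 normalized reads in SFR KO and 8427.6, 8682.7 and 8479.1 in wildtype libraries. Its groups did not overlap (log2 -0.23 ± 0.05, limma adjusted p = 0.0665). Myh9, the nonmuscle myosin heavy chain, stood at -0.28 ± 0.06 (limma adjusted p = 0.0975). Of the signalling and cell death substrates, 19 of 20 were tested, with a median of -0.06. Myc, a growth regulator that calpain can truncate, fell to 0.701 times wildtype (log2 -0.51 ± 0.07, limma adjusted p = 0.0322), and edgeR and DESeq2 each called that 1 gene; 4 had an unadjusted p under 0.05. Limma missed Myc after the GC correction (adjusted p = 0.0811) and without SFR KO 2 (0.177), wildtype 1 (0.124), wildtype 2 (0.113) or wildtype 3 (0.105), while its log2 difference in these fits stayed between -0.53 and -0.47.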

How the data were processed

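The labelled genotype set the group, and replicates were numbered in accession order. The submitters' processing notes name DESeq2 1.14.1, featureCounts 1.5 and STAR 2.5 with the build GRCm38. No source used here gives the annotation, strand setting or filters. Per the file headers, the authors deposited gene read counts divided by a size factor per library, a signal, with their mean. Beside these stand the authors' log2 fold change, its error, the p-value with its adjusted form, and the statistic, a score the authors computed. Whole reads were recovered by division by each library's value of 1 read (100% of values whole within a relative tolerance of 1e-06). Libraries of 1 group differed beyond sampling noise (chi-square per gene of 5.68 or more). Positions and lengths came from GENCODE release M21, which matched 99.7% of genes.

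The test was limma 3.58.1 (R 4.3.3; lmFit, eBayes with a trend, two-sided) on log2(normalized reads + 1), a scale that understates changes of low genes. It covered genes with a mean of at least 10, with Benjamini-Hochberg adjustment over 13562 genes and calls at an adjusted p under 0.05. The same code was also run on simulated counts, and no result here rests on that run. Alternatives were other pseudocounts, filters and scalings, sample weights, a GC correction (natural spline, 4 degrees of freedom), edgeR 4.0.16 and DESeq2 1.42.0 on recovered reads (DESeq2 gave no adjusted p to 2894 genes), and each library left out. The 8 genes and all lists were chosen with earlier results of these data known. Named were the 8 genes, every other calpain gene with a read, up to 3 called genes of a list (or the 2 of smallest p), the 3 nearest tested genes on each side of Capn11, the most like genes and cell type markers. Unread calpain genes and further germ cell markers, Gcsam, Vps4a and the neighbour DESeq2 called were named after their values were seen.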

Additional observations from a re-analysis of the deposited data

How the results depend on the processing

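Of 7 genes (Capn11 left out), limma called 1. The count was 0 with TMM scaling, edgeR or the GC correction and 0 to 1 with a library left out; the cause was not tested, although leaving out a library also leaves fewer samples. The 6 genes other than Capn15 were called in 0 of 96 alternative fits (lowest adjusted p 0.129). Their sign reversed in 3 of these: Capn1 (0.021) and Capns1 (0.039) after the GC correction, and Cast without wildtype 2. With a library left out, Cast ran from -0.049 (without wildtype 1) to 0.025 (without wildtype 2), and Capn3 from -0.053 (without SFR KO 2) to 0.41 (without SFR KO 3). Of the other calpain, penta-EF-hand, ESCRT and substrate lists, 1 gene was called (Myc). The count was 4 with DESeq2, 7 with sample weights and 0 after the GC correction. It was 0 to 8 with a library left out (8 without SFR KO 1). The deleted genes and the cell type markers are not in these counts. Among neighbours of Capn11 within 500 kb the count was 0, against 1 with DESeq2 or sample weights and 0 to 1 with a library left out; within 1 Mb it was 0 of 30. Over all genes the count ran from 11 (without SFR KO 2) to 630 (sample weights), against 63; it was 30 with edgeR, 483 with DESeq2, 18 after the GC correction and 129 without the filter. No paired analysis was possible because the labels give no replicate numbers shared between the groups.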
